A study of Mus musculus with 6 samples.

Results

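Broad promoters are start sites of protein-coding genes that lie in an unusually long stretch of open chromatin. In this table of accessible regions from mouse lung endothelial cells they were taken as regions of at least 1500 bp whose centre lay within 1 kb of the start site of a protein-coding gene, with no start site of a second protein-coding gene of the table within 1 kb of the centre. Of 58172 regions, 11427 lay at such start sites, and 504 of these were broad single-gene promoters. The comparison class was the 10920 narrower protein-coding promoters, so that the broad class made up 4.41% of both. A further 3 broad regions were left out for a second start site.

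The assay was ATAC-seq, where the transposase Tn5 cuts and tags open DNA. The 6 libraries, each from 50000 cells, came from lung endothelial cells of mice of 2 genotypes. There were 3 libraries from WT animals, labelled Cre-negative, and 3 from CSE-KO animals, labelled Cre-positive, in which CSE stands for cystathionine gamma-lyase, the enzyme of cysteine synthesis encoded by Cth. Since all CSE-KO libraries carried Cre and no WT library did, effects of Cre and of the loss of the enzyme cannot be told apart. The labels give neither the driver of Cre, nor the age or number of the animals, nor any treatment, and they do not say that the samples of a group came from separate animals, so each p-value reflects the spread between these 6 libraries, which may be technical.

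The deposited values are normalized, and their sums of 5242490 to 5547417 per library are therefore not depths. In the CSE-KO columns 1 read was worth about 1.53 to 1.63 units, judged by the whole numbers those columns skip, which puts about 247 to 296 reads behind the median broad promoter of a CSE-KO library. The Cth promoter, a narrow one of 587 bp, had values of 195, 157 and 167 in WT against 11, 6 and 2 in CSE-KO, so no library went against its label. Of 15 endothelial markers 12 had a promoter region, with summed values of 1401 to 1524 in WT and 1608 to 1751 in CSE-KO. For 6 of 20 mural and fibroblast markers the sums were 306 to 351 and 375 to 420, for 6 of 20 lung epithelial markers 439 to 560 and 598 to 649, and for 2 of 20 leukocyte markers 247 to 284 and 175 to 186. The part of other cell types in the results below was not tested.

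An accessible promoter is a stretch from which nucleosomes are displaced around the start of transcription. Promoters in CpG islands, where CpG dinucleotides have not been lost from the genome by methylation and decay, are typically open in many cell types and often start transcription at several nearby positions. Long open stretches can hold the core promoter, the sequence upstream of it and the start of the transcribed gene. GC boxes, the letters bound by Sp1 and related factors, are a common element of such promoters.

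Sequence took no part in the choice of the regions. The lines below give the 250 bases before the RefSeq start of 5 genes with a broad promoter, 5′ to 3′ on the strand of the gene, with GC boxes in capitals. They come from RefSeq with the build GRCm38.p6, whose coordinates match the mm10 build of the table. Ppp6r2, Slc49a4 and Vegfa were shown because their broad promoters were higher in CSE-KO, Jun as a broad promoter of an immediate early gene, and Stat6 as a CpG-poor broad promoter without a GC box. The windows are chr15:89211309-89211558 on the plus strand for Ppp6r2, chr16:35769371-35769620 on the minus strand for Slc49a4, chr17:46032378-46032627 on the minus strand for Vegfa, chr4:95052223-95052472 on the minus strand for Jun and chr10:127642736-127642985 on the plus strand for Stat6.
Ppp6r2: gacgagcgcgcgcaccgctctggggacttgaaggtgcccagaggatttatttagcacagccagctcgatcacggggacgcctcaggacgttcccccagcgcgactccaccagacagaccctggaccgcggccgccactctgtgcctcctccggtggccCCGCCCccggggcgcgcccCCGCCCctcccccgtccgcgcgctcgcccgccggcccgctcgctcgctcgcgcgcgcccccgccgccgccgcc
Slc49a4: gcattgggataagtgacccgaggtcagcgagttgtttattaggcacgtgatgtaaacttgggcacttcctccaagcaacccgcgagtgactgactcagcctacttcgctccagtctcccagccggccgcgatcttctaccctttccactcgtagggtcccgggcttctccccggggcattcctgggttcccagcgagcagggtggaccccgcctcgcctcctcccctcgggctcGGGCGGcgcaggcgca
Vegfa: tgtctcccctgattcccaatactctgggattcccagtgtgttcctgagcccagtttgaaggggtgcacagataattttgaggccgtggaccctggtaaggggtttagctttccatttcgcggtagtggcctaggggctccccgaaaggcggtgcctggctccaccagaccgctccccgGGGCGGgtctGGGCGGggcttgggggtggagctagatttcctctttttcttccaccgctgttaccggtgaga
Jun: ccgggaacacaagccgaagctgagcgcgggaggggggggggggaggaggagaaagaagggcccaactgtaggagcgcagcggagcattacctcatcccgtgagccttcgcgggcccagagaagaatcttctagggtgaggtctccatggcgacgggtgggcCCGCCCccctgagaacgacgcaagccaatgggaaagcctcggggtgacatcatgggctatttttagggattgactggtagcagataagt
Stat6: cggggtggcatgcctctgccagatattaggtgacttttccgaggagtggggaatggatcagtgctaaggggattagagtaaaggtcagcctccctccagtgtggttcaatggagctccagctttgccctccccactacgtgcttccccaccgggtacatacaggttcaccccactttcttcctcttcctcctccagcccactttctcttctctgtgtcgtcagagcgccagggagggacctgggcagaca
The stretch before Ppp6r2 was 76.8% G and C with 38 CpG and 2 GC boxes, and that before Slc49a4 was 63.6% G and C with 20 CpG and 1 GC box. The stretch before Vegfa, the vascular endothelial growth factor, held 11 CpG and 2 neighbouring GC boxes. Jun had 15 CpG and 1 GC box. Stat6, a transcription factor of interleukin signalling, had 6 CpG.

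Broad promoters were rich in CpG. RefSeq windows of 300 bases, of which 250 lie before the start and 50 after it, were matched by gene to 403 of the 489 broad promoters outside chromosome 18 (82.4%) and to 8570 of 10643 narrow ones (80.5%). Of the 403 broad windows, 387 started within 1 kb of the start site in the table, and of the 8570 narrow ones 8136. The median G and C content was 68.7% at broad and 61.3% at narrow promoters, and the median number of CpG in the window was 30 and 21. The ratio of observed to expected CpG, which is near 1 where CpG has not been depleted, had a median of 0.87 at broad promoters and 0.77 at narrow ones, and it was at least 0.6 in 88.1% and 75.1% of them. It followed width within the narrow class as well, with medians of 0.62 under 500 bp, 0.77 from 500 to under 1000 bp and 0.86 from 1000 to under 1500 bp. The broad class therefore continued a gradient along width, and its median was close to that of promoters just below the width limit. In the same 3 width classes 1462 of 1626, 4548 of 4756 and 2126 of 2188 windows started within 1 kb of the start site in the table. Windows further away were thus most frequent under 500 bp, and their part in the gradient was not tested.

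**Figure D1:**
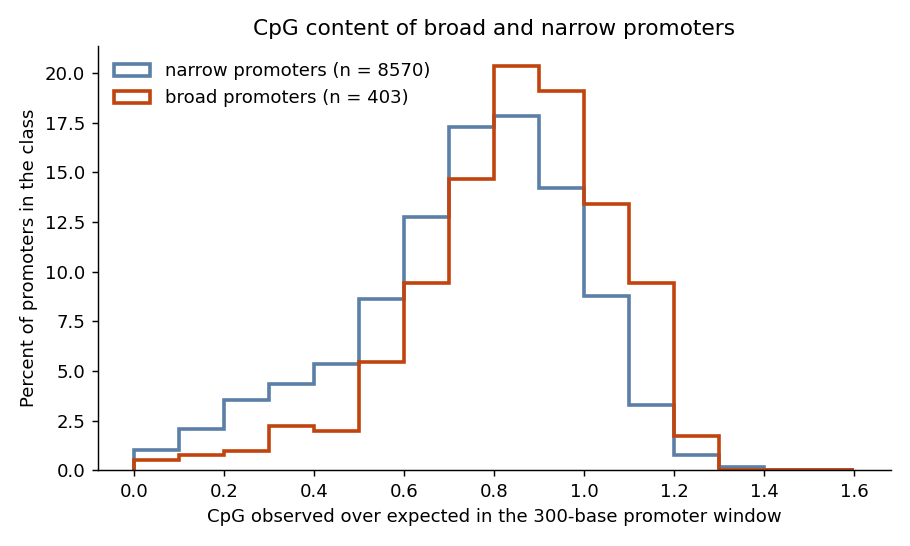
Observed over expected CpG (horizontal axis, ratio) in 300-base RefSeq windows of broad (orange) and narrow (blue) promoters, as percent of each class (vertical axis). The broad class, with a median of 0.87, lies to the right of the narrow class, with a median of 0.77.

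The motif counts differed between the classes in both directions. A GC box, searched as GGGCGG on both strands, was in 81.9% of the broad and 67.5% of the narrow windows, with 2.34 and 1.56 matches per window, against 35.7% of all RefSeq promoter windows. The CCAAT box (CCAAT) was equally frequent, in 39.0% and 38.6% (37.4% of all windows). The TATA box (TATAAA) was in 4.71% of the broad and 6.98% of the narrow windows (13.6% of all windows), the ETS motif (CCGGAAG) in 12.7% and 17.8% (8.86%), and the cyclic AMP response element (TGACGTCA) in 1.24% and 3.59% (1.79%). The heat-shock element (GAANNTTC) was in 3.23% and 5.60%, the AP-1 motif (TGANTCA) in 3.72% and 4.53%, the NRF1 core (GCGCATGC) in 4.96% and 5.60%, the E-box (CACGTG) in 9.93% and 10.5%, and YY1 (AAGATGGC) in 4.47% and 4.45%. All were searched on both strands and may overlap one another. These are matches of letters, given without a test. More than 1 RefSeq start of the gene within 1 kb of the centre of the region was found for 17.6% of the matched broad and 10.2% of the narrow promoters.

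The name single-gene held for the genes of the table more than for the genome. A RefSeq protein-coding gene on the opposite strand started within 1 kb of the centre at 79 of the 504 broad promoters (15.7%) and at 8.28% of the narrow ones. No RefSeq starts were at hand for chromosome 18, so its promoters, 15 of them broad, count here as without a second start. The deposited table names 1 gene per region, and its own start sites removed only 3 regions. The median log2 change was 0.13 at the 79 regions and 0.14 at the other broad promoters.

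Broad promoters reached from well before the start site into the gene. Their widths ran from 1500 to 2563 bp with a median of 1665 bp (quartiles 1566 and 1796.5), against a median of 788 bp for narrow promoters. The region spanned the start site itself in 489 of 504 broad promoters (97.0%), against 83.3% of the narrow ones. The median broad promoter reached 664 bp upstream and 1013 bp downstream of the start, and the median narrow one 287 bp and 497 bp. The centre lay downstream of the start in 356 of 504 (70.6%), close to the 71.9% of narrow promoters. Genes with a broad promoter were longer, with a median span, by the gene coordinates of the deposited table, of 45.7 kb against 24.2 kb.

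**Figure D2:**
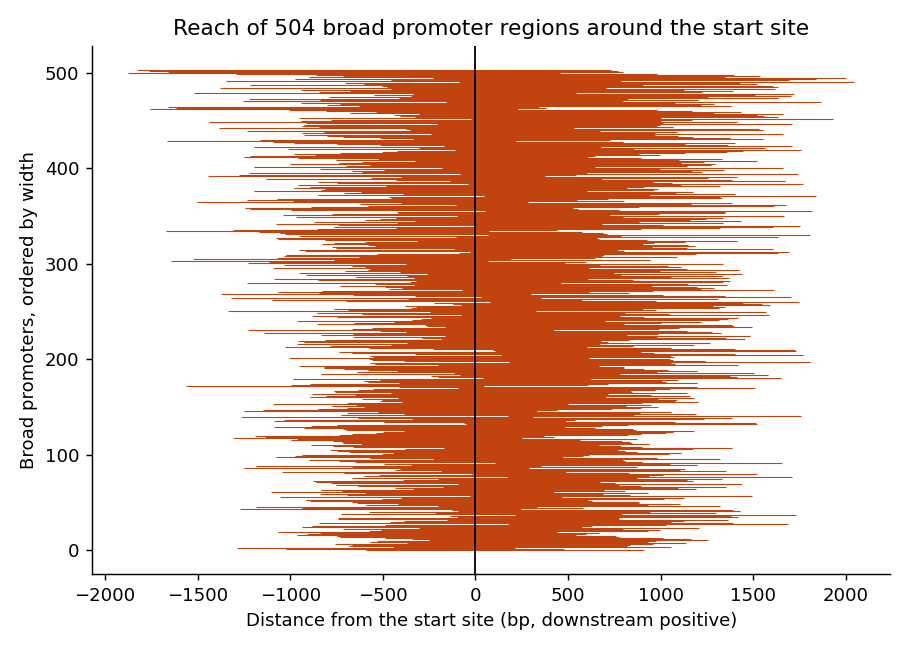
Reach of each of the 504 broad promoters around its start site (horizontal axis, bp, downstream positive), 1 line per region, ordered by width from 1500 bp at the bottom to 2563 bp at the top. Nearly all lines (489 of 504) cross the start site, and most extend further downstream than upstream.

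The widest regions included those of a transcription factor and a histone methyltransferase. Klf16, a Krüppel-like zinc finger factor, had the widest at 2563 bp (chr10:80576587-80579149), with values of 480, 535 and 504 in WT against 552, 631 and 581 in CSE-KO. Nsd2, a histone H3 methyltransferase, followed with 2532 bp (chr5:33818962-33821493) and values of 516, 573 and 537 in WT against 588, 631 and 587 in CSE-KO. The groups did not overlap at either region, but the changes of 0.21 and 0.15 (log2) did not pass the test (limma, adjusted p = 0.371 and 0.522). Others among the 10 widest were U2af2, Chst2, Zfp91, Tiparp, Usp9x, Pbx3 and Ncoa2, at 2329 to 2223 bp, with log2 changes from -0.19 at Ncoa2 to 0.32 at U2af2. None of the 10 was called by limma, and U2af2, a splicing factor subunit, was called with the trend and robust options described below (adjusted p = 0.0280).

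The limit of 1500 bp cut through a continuous range. The narrowest broad promoters were those of Efcab2, Ctnna3 and P3h1 (1501 bp) and of Fig4 and Dnajc3 (1500 bp), with mean values in WT of 338, 208, 192, 200 and 288 per kb. The widest promoters outside the class were those of Mus81 (1 bp under the limit), Marcksl1 (1498 bp), St3gal1 and Kmt2d (1497 bp each), with 288, 124, 392 and 169 per kb. The members just inside the limit did not stand apart from their neighbours outside it.

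The value per length was also taken, as a description, because the peaks that gave the widths were called on these libraries. The median value per kb was 228 in WT and 252 in CSE-KO at broad promoters, 185 and 210 at narrow ones, and 117 and 122 over all regions. Narrow promoters of 1000 bp or more had 228 and 250, the same level as the broad class. The highest in WT, apart from the predicted gene described below, was Opa3, a mitochondrial protein gene, with 603 per kb from values of 941, 978 and 890. It was followed by Zbtb20 (557 per kb), Gsk3b (542), Fam76b (538), Rbm15 (518) and Lnpep (509). Their log2 changes ran from -0.61 at Zbtb20 to -0.18 at Lnpep. They were chosen by their WT values, which enter the change, so the negative sign is favoured by the choice.

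A small number of broad promoters passed the test between the genotypes, and each of them was higher in CSE-KO. All 504 passed the filter on low values, which asked for a mean of 5. The lowest mean of a member was 123. With limma, a linear model with a moderated spread fitted to log2(value + 1) over 58129 regions, 9 were higher and 0 lower at a Benjamini-Hochberg adjusted p under 0.05. Over all regions tested 7.7% were called higher and 9.6% lower, and in either direction 17.3% against 1.79% of the broad promoters. Of the narrow promoters 554 were higher and 221 lower (7.10%). At an unadjusted p under 0.05, 69 broad promoters were higher (13.7%) and 6 lower (1.19%), against 16.3% and 17.9% of all regions (34.2% in either direction).

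The number of calls changed with the variance model and when 1 library was left out. With limma's trend and robust options, which let the expected spread depend on the level, 115 broad promoters were higher and 26 lower (28.0%), against 12.4% and 14.2% of all regions. Without WT replicate 1, 2 or 3 only 1 call was left in each case, and without CSE-KO replicate 2 or 3 there were 3 and 5. Each of these fits has 1 library fewer, and what that alone does to the calls was not tested. The 3 CSE-KO values lay above the 3 WT values at 158 broad promoters (31.3%, against 19% of all regions) and below them at 41 (8.13%, against 20.5%).

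The changes were small and mostly upward. The median log2 change was 0.14 (quartiles -0.04 and 0.31), against 0.12 at narrow promoters (quartiles -0.12 and 0.36) and -0.004 over all regions. The change was positive at 354 broad promoters (70.2%), at 63.0% of the narrow ones and at 49.7% of all regions. At 488 of 504 (96.8%) it stayed within 1.5-fold, as it did at 84.9% of narrow promoters and 66.2% of all regions. Of the other 16, 15 were at least 1.5-fold higher and 1, Zbtb20, lower. The spread between libraries was smaller at broad promoters: the median SD of the log2 values within a group was 0.109 in WT and 0.156 in CSE-KO, against 0.148 and 0.214 at narrow promoters. The broad class had the higher values, and whether its smaller spread goes beyond that was not tested.

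**Figure D3:**
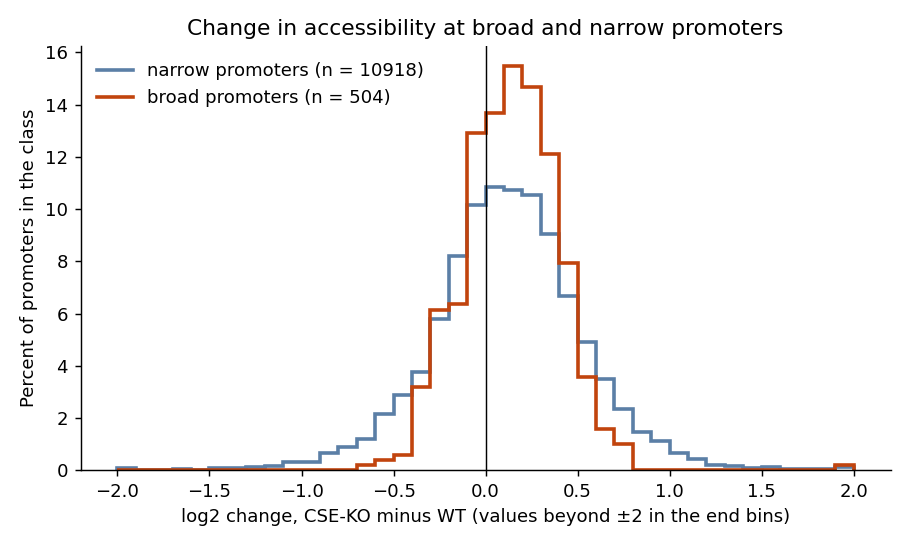
Log2 change of CSE-KO against WT (horizontal axis) at 504 broad (orange) and 10918 tested narrow (blue) promoters, as percent of each class (vertical axis). Both peak above 0, and the broad class, with 96.8% within 1.5-fold, is the more compact; the value at the right edge of the broad class is a predicted gene with a log2 change of 2.95.

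Vegfa, the growth factor that drives endothelial growth through VEGF receptors, was among the promoters that rose. Its region (chr17:46031030-46032865, 1836 bp) had values of 276, 239 and 276 in WT against 379, 475 and 404 in CSE-KO. The lowest CSE-KO library lay above the highest WT library, and the log2 change was 0.66 ± 0.17 (SE), 1.58-fold, with an adjusted p of 0.0393 by limma. In bulk libraries such as these, more cells with an open site and a more open site per cell cannot be told apart. A second region of Vegfa, 220 bp wide and 4603 bp from the start site, had 27, 15 and 28 in WT against 21, 21 and 20 in CSE-KO, where the groups overlapped (adjusted p = 0.781). Kat6a, a histone acetyltransferase of the MYST family (chr8:22859166-22860669, 1504 bp), had 179, 218 and 242 in WT against 299, 388 and 351 in CSE-KO. Its groups did not overlap either, and it rose by 0.70 ± 0.19 (adjusted p = 0.0474), a call that ended when each library was centred on its median (adjusted p = 0.0554).

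The largest rise among genes with an assigned name was at Sbno1, a homologue of a Drosophila gene that acts with Notch (chr5:124424437-124426306, 1870 bp). It had 158, 169 and 191 in WT against 271, 317 and 285 in CSE-KO, a change of 0.75 ± 0.17 or 1.68-fold (adjusted p = 0.0248). Larp1b, a La-related RNA-binding protein, had 276, 274 and 301 in WT against 474, 446 and 474 in CSE-KO, a change of 0.71 ± 0.15 (adjusted p = 0.0225). At both genes the rise was larger than the range within either group. Tesk1, a kinase that acts on cofilin and so on actin, had 256, 282 and 295 in WT against 462, 487 and 420 in CSE-KO (0.71 ± 0.16, adjusted p = 0.0259). Plekhf2, an endosomal protein with a FYVE domain, had 307, 308 and 363 in WT against 492, 501 and 614 in CSE-KO (0.71 ± 0.18, adjusted p = 0.0346). In all 4 the groups were separate.

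Slc49a4, a transporter of the lysosomal membrane, had 330, 323 and 305 in WT against 436, 550 and 538 in CSE-KO, a rise of 0.66 ± 0.17 (adjusted p = 0.0381). Its region also had a RefSeq protein-coding start on the opposite strand within 1 kb of the centre. Ppp6r2, a regulatory subunit of protein phosphatase 6, had 303, 305 and 280 in WT against 433, 496 and 440 in CSE-KO, a rise of 0.62 ± 0.16 (adjusted p = 0.0367). Again no CSE-KO library reached down to WT. Without any 1 WT replicate none of these 8 genes was called. Without CSE-KO replicate 2 only Larp1b of the 8 was called, and without CSE-KO replicate 3 Larp1b, Sbno1 and Tesk1. Without CSE-KO replicate 1 only the call at Ppp6r2 ended (adjusted p = 0.0514). All 8 were called with the trend and robust options, with adjusted p from 5.68e-05 at Larp1b to 0.000695 at Kat6a.

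**Figure D4:**
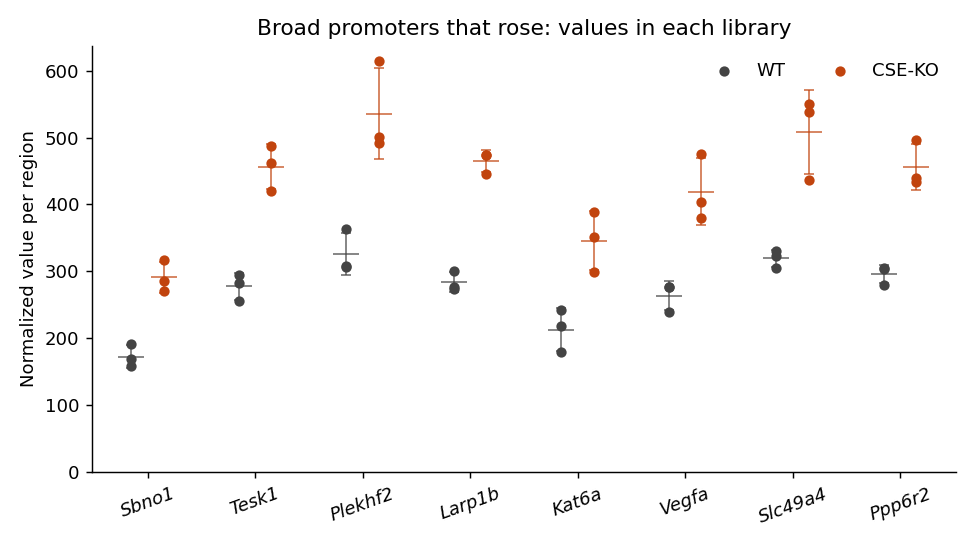
Normalized value per region (vertical axis, from 0) of the 8 named broad promoters that rose, in 3 WT (grey) and 3 CSE-KO (orange) libraries; points are libraries, horizontal marks group means and bars 1 SD. In all 8 the lowest CSE-KO point lies above the highest WT point.

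The ninth call was the predicted gene Gm10801, named after its values were seen. Its region (chr2:98662236-98663988, 1753 bp) had 3900, 2907 and 2187 in WT against 22929, 22591 and 22169 in CSE-KO (log2 change 2.95 ± 0.23, adjusted p = 0.00201). It was the only member with a value over 10000, and 1 of 6 such regions in the table. The table does not say whether reads that fit several places were kept, and repeated sequence there was not tested. Under quantile normalization, which gives the top ranks of every library the same value, its change was 0. The broad class held 3.98%, 3.88% and 4.09% of all values in the WT libraries and 4.27%, 4.60% and 4.55% in the CSE-KO libraries, a difference of 0.49 percentage points (two-sided exact permutation p = 0.1, the smallest that 3 against 3 allows, 0.2 adjusted over 2 comparisons). Without Gm10801 the shares were 3.91%, 3.82% and 4.05% against 3.85%, 4.19% and 4.15%, and the difference fell to 0.14 percentage points (exact permutation p = 0.3).

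No broad promoter passed the test as lower by limma, and the nearest to it was Zbtb20, a zinc finger repressor. It had 924, 900 and 936 in WT against 529, 696 and 597 in CSE-KO (chr16:42874738-42876390). The groups were well apart, the log2 change was -0.61 ± 0.17, and the adjusted p was 0.05005. It was called lower with a pseudocount of 8 (adjusted p = 0.0309), with the trend and robust options (7.45e-05), with centred libraries (0.0486), with quantile normalization (0.0243) and without CSE-KO replicate 2 (0.0426), while leaving out any other library gave 0.0876 to 0.146.

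Other regulators had lower values that the trend and robust options called. Sik1, a salt-inducible kinase, had 319, 295 and 342 in WT against 196, 254 and 217 in CSE-KO (-0.52, adjusted p = 0.0798, with trend 0.00505). Tead1, the DNA-binding partner of YAP, had 396, 384 and 467 in WT against 284, 325 and 302 in CSE-KO (-0.45, adjusted p = 0.105, with trend 0.00675). E2f1, a cell cycle factor, had 532, 466 and 538 in WT against 356, 417 and 359 in CSE-KO (-0.44, adjusted p = 0.107, with trend 0.00459). In all 3 the groups were separate, in the direction opposite to most of the class. Sik1 was named after its values were seen.

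The sign of the change went with how open a promoter was. In classes of the mean value per kb over all 6 libraries, the median log2 change of broad promoters was 0.25 at 100 to 150 (30 regions), 0.27 at 150 to 200 (96), 0.15 at 200 to 250 (137), 0.12 at 250 to 300 (123), 0.04 at 300 to 350 (64) and -0.04 at 350 to 500 (48). Narrow promoters in the same classes had 0.21, 0.22, 0.15, 0.09, 0.01 and -0.07, so the order was shared. Over the 504 members Spearman's rho between the mean per kb and the change was -0.34 (narrow, n = 10918, -0.15), and between width and change -0.03 (narrow -0.04). Regions share the libraries and their scaling, so these are descriptions. In width classes of all protein-coding promoters the median change was 0.20 under 500 bp, 0.11 from 500 to under 1000 bp, 0.12 from 1000 to under 1500 bp, 0.14 from 1500 to under 2000 bp and 0.10 in the 38 wider regions, the 2 widest of all apart, while the share called went from 10.8% through 6.68%, 5.17% and 1.93% to 0. With the trend and robust options that order was reversed, and the share called in the same 5 classes went from 17.5% through 22.6%, 25.4% and 27.6% to 31.6%.

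Broad and narrow promoters did not differ in their change by the test over libraries. The mean log2 value of broad minus that of narrow promoters was 1.68, 1.64 and 1.66 in WT against 1.63, 1.71 and 1.70 in CSE-KO. The groups overlapped, and the difference of 0.02 was within their spread (two-sided exact permutation p = 0.6, 0.6 adjusted over 2 comparisons). Limited to mean values of 300 to 600 per region, a choice made after the data were seen, the same contrast was 0.11, 0.12 and 0.15 in WT (371 broad and 1556 narrow promoters) and 0.22, 0.25 and 0.27 in CSE-KO. There every CSE-KO library was above every WT library, with a difference of 0.12 (exact permutation p = 0.1, the smallest possible). Limited instead to 200 to 300 per kb, also chosen afterwards, the difference was 0.03 (260 broad and 3664 narrow promoters, exact permutation p = 0.4). Neither limit made the classes equal. In WT, broad promoters still lay 0.11 to 0.15 above narrow ones under the first limit. Under the second they lay 0.997 to 1.03 above them.

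**Figure D5:**
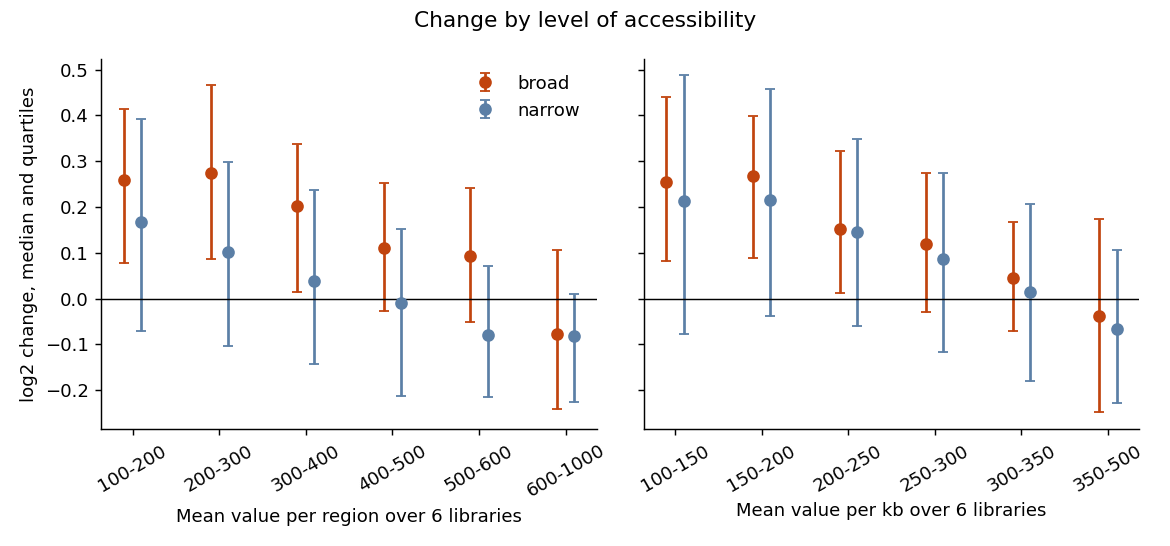
Median log2 change (points, vertical axis) with quartiles (bars) of broad (orange) and narrow (blue) promoters in classes of mean value per region (left) and per kb (right), over 6 libraries. At 300 to 400 per region the medians are 0.20 and 0.04. At 200 to 250 per kb, the closest of the per-kb classes, they are 0.152 and 0.146. In every class of both panels the broad median is the higher.

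Gene lists were counted at the broad promoters, without a test. The lists below were matched by symbol, and 116 of 504 members (23.0%) belonged to at least 1. Against 4.41% of all promoters, 8 of 44 promoters of histone acetylation genes (18.2%) were broad. The histone methylation and Polycomb list, written after the names of the members were seen, had 16 of 58 (27.6%), and the chromatin remodelling list, also written then, 10 of 40 (25%), so both shares were raised by the choice and support nothing. Splicing and RNA-binding genes had 10 of 51 (19.6%). Zinc finger genes named Zfp, Znf or Zbtb, another list added afterwards, were at the general level with 15 of 331 (4.53%).

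Of the 8 acetylation genes 1 was called higher and 0 lower, with a median log2 change of 0.28 and 4 whose groups were separate and higher. Of all regions 7.7% were called higher and 19% separate and higher, and of the broad class 1.79% and 31.3%. The called gene was Kat6a. Ep300, the acetyltransferase p300 and coactivator of many factors, had 280, 235 and 275 in WT against 343, 408 and 381 in CSE-KO. Brpf3, a scaffold of MYST acetyltransferases, had 248, 289 and 270 in WT against 405, 411 and 348 in CSE-KO. Both pairs of groups were separate, with changes of 0.52 and 0.53 that limma did not call (adjusted p = 0.0741 and 0.0678) and that the trend and robust options did (0.00314 and 0.00241). The corepressor subunit Rcor1 had a change of 0.29 (adjusted p = 0.297). The coactivator Ncoa2 had a change of -0.19 (adjusted p = 0.479).

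None of the 16 methylation and Polycomb genes was called by limma (6 higher at an unadjusted p under 0.05), and with the trend and robust options 8 were higher and 2 lower, where 12.4% and 14.2% of all regions and 115 and 26 of the 504 broad promoters were. The median was 0.22, and 16.3% of all regions were higher at an unadjusted p under 0.05. Kmt5b, a histone H4 methyltransferase, had 204, 202 and 260 in WT against 302, 385 and 376 in CSE-KO (0.67, adjusted p = 0.0513, with trend 0.000855). Eed, a core subunit of Polycomb repressive complex 2, had 392, 343 and 348 in WT against 526, 539 and 458 in CSE-KO (0.49, adjusted p = 0.0802, with trend 0.0020). The groups were separate at both. Setd5 went the other way, with 771, 640 and 757 in WT against 529, 578 and 576 in CSE-KO (-0.36, adjusted p = 0.166, with trend 0.00822), as did Rybp, a Polycomb protein, with a change of -0.41 (adjusted p = 0.221, with trend 0.0331). The 10 remodelling genes had a median of 0.10 and no call by limma (3 higher at an unadjusted p under 0.05), and 3 were higher with trend, among them Ino80 (0.40, adjusted p = 0.117, with trend 0.00962). The 10 splicing and RNA-binding genes had a median of 0.18 and no call by limma (0 at an unadjusted p under 0.05, and 3 higher and 1 lower with trend), with Srsf7 and Ewsr1 at 0.40 each (adjusted p = 0.148 and 0.157).

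Of 36 promoters of endothelial identity genes 1 was broad (2.78%, against 4.41% in general), that of Cldn5, the main claudin of endothelial tight junctions. It had 296, 255 and 281 in WT against 332, 265 and 282 in CSE-KO, with overlapping groups (0.08, adjusted p = 0.791). Among VEGF, Notch and guidance genes 3 of 38 were broad, Vegfa, Nrarp and Ephb4, and 1, Vegfa, was called, against 17.3% of all regions. Ephb4, the venous receptor of ephrin-B2, had 400, 430 and 457 in WT against 346, 359 and 351 in CSE-KO, a separate and lower group that was not called (-0.28, adjusted p = 0.236, with trend 0.0573). Nrarp, a feedback inhibitor of Notch, had a change of 0.12 (adjusted p = 0.622).

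Of 38 TGF-beta and BMP promoters 6 were broad (15.8%), with changes from -0.30 to 0.55, a median of 0.21 and no call by limma. At an unadjusted p under 0.05 there was 1, and with trend 2 were higher and 1 lower. The shares of all regions were 34.2%, 12.4% and 14.2%. Bmpr2, the BMP receptor whose mutations cause pulmonary arterial hypertension, had 394, 385 and 367 in WT against 420, 556 and 471 in CSE-KO. Its groups were separate (0.33, adjusted p = 0.226, with trend 0.0370). Skil, a SMAD corepressor, had 720, 686 and 820 in WT against 513, 688 and 618 in CSE-KO, which overlapped by 1 library (-0.30, adjusted p = 0.292). Smad1 had a change of 0.24. PI3K, AKT and mTOR genes, a list added afterwards, had 8 of 35 broad (22.9%), among them Gsk3b, Pik3r1, Pik3cb, Gab1 and Rictor, with a median of 0.14 and no call (0 at an unadjusted p under 0.05, and 1 lower with trend). Wnt and Frizzled genes, added likewise, had 6 of 38 (15.8%), with Fzd1 at 0.19 and Fzd7 at 0.10 and no call. Znrf3, a ubiquitin ligase that removes Frizzled receptors, was the 1 member with an unadjusted p under 0.05, with 224, 221 and 209 in WT against 332, 265 and 320 in CSE-KO. Its groups were separate (0.48, adjusted p = 0.0892, with trend 0.00849). The PI3K and Wnt lists were added after the names of the members were seen, so their shares of broad promoters support nothing.

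Immediate early and stress genes were not called by limma. Of their 9 promoters in 3 lists 0 passed an unadjusted p under 0.05, against 34.2% of all regions. With the trend and robust options Jun and Jund were higher, as were 12.4% of all regions. Of 36 AP-1 and immediate early promoters 4 were broad, with changes from -0.22 to 0.38 and a median of 0.28. One had separate groups that were higher and another separate groups that were lower, where 19% and 20.5% of all regions had such groups. Jun (chr4:95051448-95053478, 2031 bp) had 811, 676 and 732 in WT against 923, 879 and 1029 in CSE-KO, with separate groups, and was not called (0.35 ± 0.17, adjusted p = 0.180, with trend 0.00622). Jund had 532, 390 and 478 against 531, 711 and 574, with overlap (0.38, adjusted p = 0.230), and Gadd45b a change of 0.21 (adjusted p = 0.444). Of 32 promoters of cysteine, sulfide, glutathione and NRF2 genes 2 were broad, Nfe2l2, which encodes NRF2 itself, and its competitor Bach1. Nfe2l2 had 528, 525 and 539 in WT against 484, 575 and 464 in CSE-KO (-0.07, adjusted p = 0.797), and Bach1 a change of 0.11 (adjusted p = 0.684). Among 30 ATF4 and amino acid stress promoters the 3 broad ones were those of the transporters Slc7a5 (0.31), Slc38a2 (0.24) and Slc7a1 (-0.21), each with separate groups and none called (adjusted p from 0.282 to 0.380).

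The remaining lists held few members, and 0 of their 24 promoters were called by limma. At an unadjusted p under 0.05, 0 were higher and 2 lower, against 16.3% and 17.9% of all regions. Hypoxia and glycolysis genes had 1 of 36 (Bhlhe41, 0.03), heat-shock and chaperone genes 2 of 35 (Hspa4l, 0.11, and Dnajc3, 0.07), NF-kB and adhesion genes 2 of 45 (Socs1, 0.09, and Nfkb2, -0.01), and cell cycle genes 3 of 50 (E2f1, Cdkn2c and Rrm2). Developmental transcription factors had 5 of 62, with Gli3 at 0.43, Sox4 at 0.27, Meis1 at 0.11, Nfix at 0.10 and Pbx3 at -0.01. Ubiquitin and autophagy genes had 4 of 39 (Cul3 at 0.35, Otud1 at 0.07, Ube2d3 at -0.07 and Tfeb at -0.32), YAP and Hippo genes 2 of 19 (Tead1 and Crim1), MAP kinase phosphatases and Sprouty genes 2 of 18, flow-responsive KLF and MEF2 genes 2 of 19 (Klf16 and Map3k3, -0.28), and clock genes and nuclear receptors 1 of 29 (Clock, 0.34). With the trend and robust options Gli3 and Clock were higher and E2f1, Tead1 and Map3k3 lower. Among all regions 12.4% were higher and 14.2% lower by these options. Cytosolic ribosomal proteins had 0 broad of 52 promoters and respiratory chain genes 0 of 42. The mural, lung epithelial and leukocyte markers had no broad promoter either.

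Other regions that the table assigns to the same genes, more than 1 kb and up to 5234 bp from the start site, were compared next. There were 47 of them, narrow and weak beside the promoters, and 2 were higher and 5 lower (14.9% called, against 17.3% of all regions, median log2 change -0.09). For genes with a narrow promoter, whose other regions lay up to 5945 bp away, 172 of 2305 were higher and 218 lower (16.9%, median -0.02). Dusp7, a phosphatase of ERK, had a region of 282 bp at 3166 bp from the start with 86, 77 and 73 in WT against 21, 44 and 30 in CSE-KO. That region fell (-1.34 ± 0.27, adjusted p = 0.0190), while the broad promoter of Dusp7 had a change of -0.04 (adjusted p = 0.910). Regions of Pwwp2b, Camk2n2, Efcab2 and the gene listed as MACIR were also lower (-0.90 to -1.19), and those of Syt17 and Brox higher. At Brox the region rose by 3.54 on the log2 scale (adjusted p = 0.000866), against 0.22 at its broad promoter (adjusted p = 0.381). These genes were named after their values were seen, and the difference between the regions of a gene was not tested.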

How the data were processed

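ATAC-seq libraries of 3 WT and 3 CSE-KO samples, sequenced as pairs of 38 bases, were analysed from the table of 58172 regions that the authors deposited, with mm10 coordinates, the assigned gene and 1 value per library. The submitters' processing notes name STAR 2.7.3a, DESeq2 1.26.0, Trimmomatic 0.39 and Picard 3.1.1, without their roles; for the peak caller and any Tn5 shift, nothing is given in the sources used here. Values that the authors deposited were taken as a score, since they are whole numbers with nearly equal totals, and the CSE-KO columns skip 35 to 39 of the whole numbers up to 100, as counts divided by a size factor and rounded would do. A planned model for raw counts was therefore not run, and no depth could be given for WT.

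The table was fitted whole in R 4.3.3 (limma 3.58.1, trend and robust off), using log2(value + 1) of regions whose mean was 5 or more. Differences are CSE-KO minus WT, adjusted by Benjamini-Hochberg and called at 0.05; the fit was tested on simulated data. Fold changes are on that scale. For single values per library, a two-sided exact permutation test was used. Sequences came from RefSeq (GRCm38.p6). Named genes are the 10 widest, the largest called changes, the 6 highest per kb in WT, up to 4 by smallest p per list fixed first, and the 4 on either side of the width limit. The lists added afterwards had no such rule. Kmt5b, Eed, Setd5, Rybp, Ino80 and Znrf3 were named from them outside the rule, with their values known. Values of some of these genes are not reported here. Members and lists were chosen with earlier results of these data known. Alternatives were another pseudocount, filter, variance model, scaling, width limit and distance, a replicate block, and leaving out each replicate.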

Additional observations from a re-analysis of the deposited data

How the results depend on the processing

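The median change of broad promoters kept its sign and stayed between 0.115 and 0.187 in every alternative run, but the number called did not stay. It was 22 (21 higher, 1 lower) with a pseudocount of 8, 24 (23 and 1) with a minimum mean of 20, 141 (115 and 26) with limma's trend and robust options, and 14 with quantile normalization (2 lower); with centred libraries 1 was lower. Leaving out 1 replicate gave 1 to 9 called, 1 to 9 higher and 0 to 1 lower. A width limit of 1200 bp gave 59 of 1635 (50 and 9), and one of 2000 bp 0 of 40. With the replicate number as a block 1 was called and higher, only Gm10801; the numbers did not pair the libraries (correlations of deviations -0.0059, -0.011 and 0.010 for equal numbers). The contrast of broad minus narrow promoters turned to -0.025 at 2000 bp (exact permutation p = 0.5) and was between 0.002 and 0.12 otherwise. With the block its exact permutation p was 0.75. That of the share of values was 0.25, the smallest that 3 pairs allow. The difference in the share of values ranged from 0.012 percentage points at 2000 bp to 0.70 at 1200 bp. The causes of these moves were not tested. Of the values for single promoters, 839 kept their side of the threshold, 25 gained a call and 47 lost one. Depth limits the CSE-KO values, where 1 read is worth more than 1.5 units. With 3 libraries against 3 an exact test without pairs cannot go below 0.1.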

Other observations

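Broad promoters were found on every chromosome tested except Y, but at unequal shares. The X chromosome had 5 among 343 protein-coding promoters (1.46%), among them those of Usp9x, a deubiquitinase, and Kdm6a, a histone H3 demethylase, against 6.10% on chromosome 12 and 5.84% on chromosome 10. Usp9x had values of 360, 353 and 360 in WT against 312, 490 and 464 in CSE-KO, and Kdm6a 229, 274 and 252 against 163, 291 and 289. In both CSE-KO replicate 1 was the lowest of the 6.

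The sequence of the matched RefSeq window went with the change of a broad promoter hardly at all. The median log2 change was 0.12 at the 48 with a CpG ratio under 0.6, 0.14 at the 97 from 0.6 to 0.8 and 0.14 at the 258 above. It was 0.15 at the 330 with a GC box, 0.14 at the 73 without one, 0.11 at the 157 with a CCAAT box and 0.08 at the 19 with a TATA box. Of the 403 matched windows 387 lay within 1 kb of the start site in the table. Others lay far from it, among them those of Zbtb20 (371403 bp), Bach2 (178631 bp) and Spats2l (71409 bp). Those named here counted in the class under 0.6, which therefore includes sequence from outside the broad promoter. These are descriptions without a test.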
